A study of Homo sapiens with 6 samples.

Results

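The 10 genes described here belong to the YAP and TAZ pathway and its targets: YAP1, WWTR1, TEAD1, TEAD3, LATS1, LATS2, CCN1, CCN2, ANKRD1 and AMOTL2. They were chosen by name from a table of 62703 genes, each has 1 row in it, and all 10 reached 1 TPM in at least 3 libraries and so were among the 12645 genes tested. Messenger RNA was measured by RNA sequencing in 786-O, an established line from a human clear cell kidney cancer that is known to lack functional VHL protein. A group of 3 libraries came from 786-O cells overexpressing OGT, the enzyme that adds O-GlcNAc to nuclear and cytosolic proteins, and the other 3 from control 786-O cells, labelled NC with the genotype WT. All were grown in RPMI-1640 with serum. How OGT was introduced, what the controls carried, and whether the cells were 1 clone or a pool are not stated in the labels. Values are TPM, an abundance scaled to transcript length and library total, so levels can be compared between genes. Each change is the mean log2(TPM + 1) of OGT libraries minus that of controls, a scale that understates what happens to low genes, and p-values are from limma with Benjamini-Hochberg adjustment over all tested genes and a threshold of 0.05.

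YAP, encoded by YAP1, and TAZ, encoded by WWTR1, are transcriptional coactivators that have no DNA-binding domain and act through TEAD transcription factors. In the Hippo pathway the kinases LATS1 and LATS2 phosphorylate YAP and TAZ, which keeps them in the cytoplasm and marks them for degradation. CCN1, CCN2, ANKRD1 and AMOTL2 are widely used readouts of YAP and TAZ, and LATS2 and AMOTL2 are targets that also restrain the pathway. YAP is itself known to carry O-GlcNAc in other human cells. Phosphorylation, location and O-GlcNAc were not measured here.

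Library totals ran from 993935.5 to 996951.6 TPM. Sequencing depth cannot be read from TPM, so counting precision is unknown. OGT itself had 352.74, 352.92 and 270.87 TPM in the overexpressing libraries, against 23.11, 22.57 and 23.62 TPM in the controls. The renal lineage factor PAX8 lay between 183.73 and 209 TPM in OGT libraries and between 124.78 and 142.5 TPM in control libraries, and the keratin gene KRT8 lay between 1185.96 and 1225.38 TPM in OGT and between 1249.75 and 1322.73 TPM in control libraries, while CA9 and EPCAM stayed below 1 TPM. Summed fibroblast markers (5 genes) reached at most 3.04 TPM in OGT and 2.48 TPM in control libraries, and endothelial markers (4 genes, CDH5 at 0 in all 6) at most 2.77 and 8.68 TPM. The 4 immune markers summed to 101.61 to 119.69 TPM in OGT libraries and 67.12 to 72.95 TPM in control libraries. Nearly all of it was CD68, a lysosomal protein gene, except in control replicate 1, where CD68 had 60.59 TPM. PTPRC, the defining leukocyte gene, was listed at 0 in the OGT libraries and at 12.23, 0.06 and 0.07 TPM in the controls. The part of these differences in the results was not tested. Whether the replicates were separate cultures is not stated, and the p-values therefore speak only for the spread among these 6 libraries, which may be technical.

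Transcripts of 9 of the 10 genes were higher with OGT overexpression, and 0 were lower, also 0 at an unadjusted limma p below 0.05. The exception was WWTR1, whose groups overlapped. The 9 genes changed by 0.60 to 1.25 on the log2 scale, and the median over the 10 was 0.83. Of all 12645 tested genes 39.1% were called higher and 9.70% lower, and their median change was 0.30. The members are to be read against that upward median. Because TPM is scaled to the library total, it is a shift in shares of the total, not in the amount of RNA. In 9 of the 10 genes every OGT library lay above every control library, which was so for 46.2% of all tested genes, with 12.4% the other way round. TEAD1 and LATS1 passed the filter on low values through the OGT libraries and 1 control library each, so a higher level with OGT was built into their being tested. Because RNA was taken from whole cultures, a change in the share of cells that express a gene and a change in RNA per cell cannot be told apart.

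Changes in this table varied with transcript composition: across 12348 tested genes with a reference transcript, the change correlated with GC content at a Spearman coefficient of -0.472 and with transcript length at 0.386, a description across genes, which are not independent replicates. Each member is therefore also given after the trend of every library on GC content and on length was taken out (called here the trend-removed change). Under that fit 16.0% of genes were called higher and 12.8% lower, against 6 higher and 1 lower of the 10 members, with a median of 0.50 over the members and 0.03 over all genes. With libraries centred on their medians, 15.3% of genes were called higher and 24.2% lower, against 6 and 0 of the members. Quantile normalization gave 20.2% higher and 17.8% lower, against 6 and 0. YAP1, CCN1, CCN2, ANKRD1 and AMOTL2, 5 of the 10, were called higher under all of these. Median centring moved the median change of all genes to -0.09, so part of the smaller changes under it is built in.

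**Figure D1:**
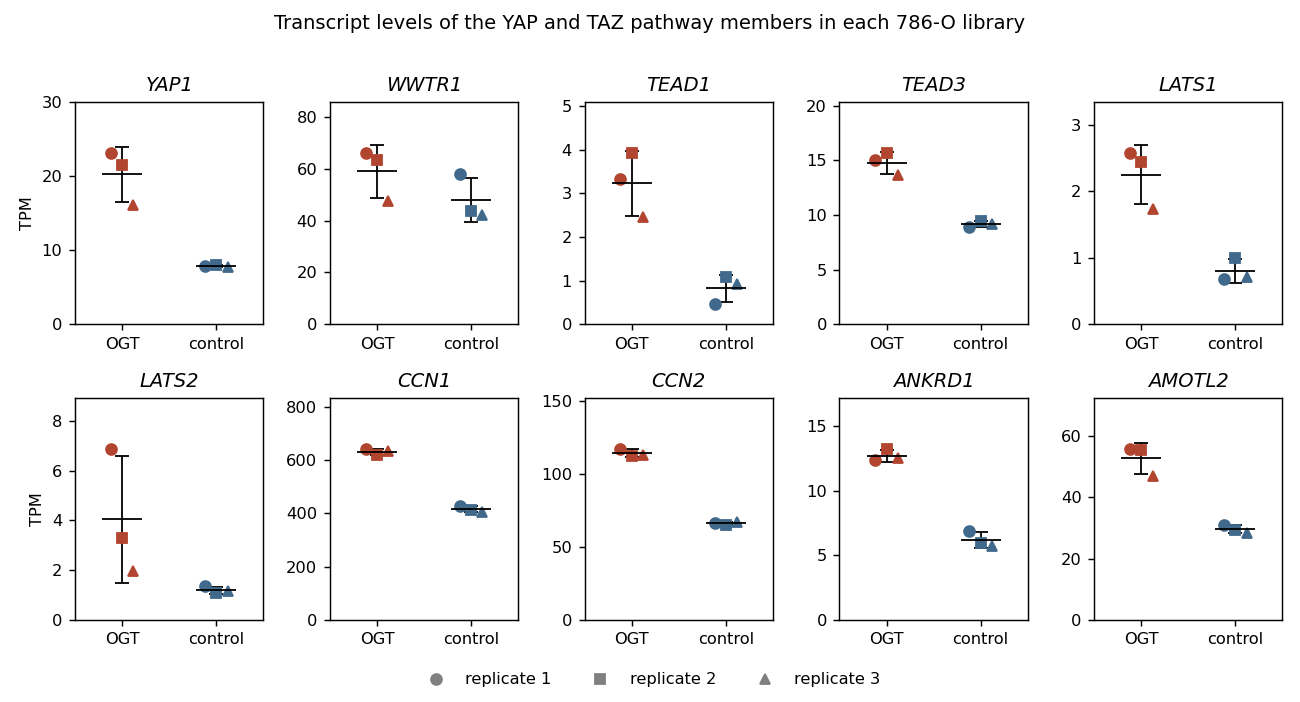
TPM of the 10 members in each library. Points are libraries, with the symbol giving the replicate number, and the bar and whiskers are the mean and SD over n = 3. OGT and control points separate in every panel but WWTR1, and LATS2 has the widest spread among OGT libraries relative to its mean, 1.95 to 6.87 TPM.

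The coactivators differed from each other. YAP1 (ENSG00000137693, chromosome 11, 102110461 to 102233423, plus strand, GENCODE release 29 on GRCh38) had 23.09, 21.54 and 16.08 TPM in OGT libraries, against 7.85, 7.98 and 7.75 TPM in control libraries. The lowest OGT library was above every control, and the controls lay within a narrow band. The mean was 20.24 ± 3.68 TPM with OGT and 7.86 ± 0.115 TPM in controls (SD, n = 3 each), a log2 change of 1.25 (SE 0.146, adjusted p = 6.72e-04). On this scale it was the largest change among the members, and it was larger than that of 94.9% of tested genes. The trend-removed change was 0.52 (adjusted p = 0.0239).

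WWTR1 (ENSG00000018408, chromosome 3, 149517235 to 149736714, minus strand) had 65.95, 63.48 and 47.4 TPM in OGT libraries, against 57.86, 43.59 and 42.3 TPM in control libraries. Its groups overlapped, since control replicate 1 stood above OGT replicate 3. The log2 change was 0.29 (95% interval -0.10 to 0.68, adjusted p = 0.181), close to the median of all genes. The sign depended on scaling: the change was -0.10 after median centring (adjusted p = 0.646), 0.09 after quantile normalization (adjusted p = 0.701) and -0.47 with the trend removed (adjusted p = 0.0455), where WWTR1 was called lower. The span of an antisense gene, WWTR1-AS1, which reached 3.33 TPM, overlaps that of WWTR1. The library strand is not stated and overlap of exons was not examined, so whether reads of 1 were counted for the other is unknown.

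The balance of the coactivator transcripts can be read within each library, where a library-wide scaling factor cancels. YAP1 over WWTR1 was 0.35, 0.339 and 0.339 in OGT libraries, against 0.136, 0.183 and 0.183 in control libraries. WWTR1 thus remained the more abundant transcript in all 6 libraries, with a higher share of YAP1 in every OGT library. The means were 0.343 ± 0.00625 and 0.167 ± 0.0274 (SD, n = 3 each; exact permutation test, two-sided, p = 0.1, the smallest that 3 against 3 allows, and 0.12 adjusted over 6 ratios). The reference transcripts of both genes are alike in composition, 43.5% GC and 5398 bases for YAP1, 40.9% GC and 5030 bases for WWTR1.

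**Figure D2:**
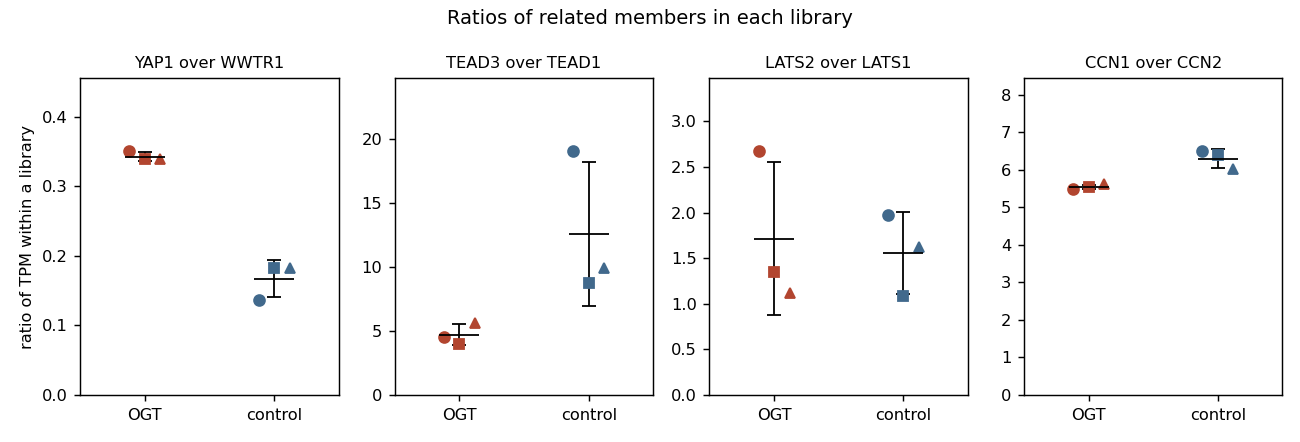
Ratios of TPM between related members within each library, with the mean and SD over n = 3 in black. YAP1 over WWTR1 lies near 0.34 in OGT libraries and at 0.136 to 0.183 in control libraries, CCN1 over CCN2 also separates, and LATS2 over LATS1 overlaps between groups.

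TEAD1 and TEAD3 encode DNA-binding partners of YAP and TAZ. TEAD1 (ENSG00000187079, chromosome 11, 12674591 to 12944483, plus strand) had 3.32, 3.92 and 2.45 TPM in OGT libraries, against 0.47, 1.08 and 0.92 TPM in control libraries. All 3 OGT values stood above the controls, at a level close to the filter on low values. Its log2 change was 1.21 (SE 0.229, adjusted p = 0.00479), it became 1.89 with a pseudocount of 0.1 TPM, and the call was lost with the trend removed (0.44, adjusted p = 0.199).

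TEAD3 (ENSG00000007866, chromosome 6, 35473597 to 35497076, minus strand) had 14.99, 15.63 and 13.67 TPM in OGT libraries, against 8.92, 9.43 and 9.13 TPM in control libraries. The groups were far apart compared with their spread. Its log2 change of 0.63 (SE 0.102, adjusted p = 0.00248) was 0.54 with the trend removed (adjusted p = 0.00639). It was 0.24 after median centring and 0.26 after quantile normalization, without a call (adjusted p = 0.109 and 0.0903). The reference transcript of TEAD3 has 59.8% GC, against 41.3% for TEAD1, and each kept its call under the scalings where the other lost it. TEAD3 over TEAD1 was 4.52, 3.99 and 5.58 in OGT libraries, against 19, 8.73 and 9.92 in control libraries (exact permutation p = 0.1, two-sided).

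Of the other TEAD genes, TEAD4 was the most abundant, with 41.72, 33.97 and 36.24 TPM in OGT libraries against 32.1, 24.24 and 24.38 TPM in control libraries. It rose by a log2 change of 0.46 (limma adjusted p = 0.0246), or 0.58 with the trend removed (adjusted p = 0.0203). The change was 0.08 after median centring and 0.18 after quantile normalization without a call (adjusted p = 0.658 and 0.317). TEAD4 also lost its call without OGT replicate 1 or 3 or control replicate 2 or 3 (adjusted p from 0.0532 to 0.0812) and with no filter (adjusted p = 0.0617). TEAD2, named after its values were seen, averaged 1.58 ± 0.503 TPM with OGT and 1.83 ± 0.356 TPM in controls, with a log2 change of -0.14 and no call. The order TEAD4 above TEAD3 above TEAD1 and TEAD2 held in all 6 libraries, and TEAD1 stood above TEAD2 in the 3 OGT libraries but below it in the 3 control libraries. YAP1 and TEAD3 also changed places in deposited TPM: YAP1 lay above TEAD3 in all OGT libraries and below it in all control libraries. Their trend-removed changes were nearly equal, 0.52 for YAP1 and 0.54 for TEAD3. VGLL4, which encodes a protein that competes with YAP for TEAD, rose by 0.52 (adjusted p = 0.012; 0.13 to 0.21 and not called under the other 3 scalings). VGLL1 and VGLL2 were listed at 0 in all 6 libraries, and VGLL3 reached at most 0.11 TPM.

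The LATS kinase genes were, with TEAD1, the lowest of the members. LATS1 (ENSG00000131023, chromosome 6, 149658153 to 149718256, minus strand) had 2.57, 2.44 and 1.74 TPM in OGT libraries, against 0.68, 1 and 0.71 TPM in control libraries. The groups did not overlap, and the controls sat at or below 1 TPM. Its log2 change of 0.85 (SE 0.198, adjusted p = 0.0115) was 1.39 with a pseudocount of 0.1 TPM. The call was lost after median centring (0.46, adjusted p = 0.114), quantile normalization (0.49, adjusted p = 0.0888) and trend removal (0.06, adjusted p = 0.834). Its reference transcript, 7517 bases at 39.7% GC, had the lowest GC content of the 10.

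LATS2 (ENSG00000150457, chromosome 13, 20973032 to 21061547, minus strand) had 6.87, 3.3 and 1.95 TPM in OGT libraries, against 1.34, 1.08 and 1.15 TPM in control libraries. All OGT values were above the controls, but relative to their mean they differed among themselves more than those of any other member. The log2 change was 1.08 (SE 0.353, 95% interval 0.25 to 1.92, adjusted p = 0.0391), and it was 0.70 without OGT replicate 1. The call was lost without OGT replicate 1 or 2 or control replicate 1, 2 or 3 (adjusted p from 0.0679 to 0.0932), with no filter (adjusted p = 0.093) and under the other scalings (0.68 to 0.72, adjusted p from 0.139 to 0.176). LATS2 over LATS1 averaged 1.72 ± 0.837 in OGT libraries and 1.56 ± 0.449 in control libraries and overlapped (exact permutation p = 0.9, two-sided).

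CCN1 and CCN2, formerly CYR61 and CTGF, encode secreted matricellular proteins and were the most abundant members. CCN1 (ENSG00000142871, chromosome 1, 85580761 to 85583962, plus strand) had 641.65, 619.34 and 633.44 TPM in OGT libraries, against 428.07, 413.3 and 404.91 TPM in control libraries. Within each group the 3 values were close, and the groups lay far apart. Its log2 change was 0.60 (SE 0.0366, adjusted p = 7.33e-05), 0.37 with the trend removed (adjusted p = 6.06e-04) and 0.21 after median centring (adjusted p = 0.00693).

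CCN2 (ENSG00000118523, chromosome 6, 131948176 to 131951373, minus strand) had 116.88, 111.85 and 112.91 TPM in OGT libraries, against 65.95, 64.64 and 67.21 TPM in control libraries. The spread within a group was again small. Its log2 change was 0.78 (SE 0.0482, adjusted p = 7.89e-05), 0.58 with the trend removed (adjusted p = 2.38e-04) and 0.39 after median centring (adjusted p = 0.00105). CCN1 over CCN2 was 5.49, 5.54 and 5.61 in OGT libraries, against 6.49, 6.39 and 6.02 in control libraries (exact permutation p = 0.1, two-sided), lower in every OGT library than in any control. Their reference transcripts are nearly equal in GC content and length, 50.3% and 2290 bases for CCN1, 51.5% and 2339 bases for CCN2. CCN3, another gene of the family, rose by 0.76 (adjusted p = 0.0026; 0.34 to 0.39 and not called under the other 3 scalings), while CCN4 and CCN6 were listed at 0 in all 6 libraries.

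ANKRD1 encodes an ankyrin repeat protein best known from heart muscle. It (ENSG00000148677, chromosome 10, 90912096 to 90921276, minus strand) had 12.4, 13.24 and 12.52 TPM in OGT libraries, against 6.87, 5.93 and 5.75 TPM in control libraries, with no overlap. Its log2 change was 0.94 (SE 0.117, adjusted p = 8.74e-04), 0.48 with the trend removed (adjusted p = 0.0184) and 0.55 after median centring (adjusted p = 0.00911).

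AMOTL2 encodes a junction protein that binds YAP and holds it out of the nucleus. The gene (ENSG00000114019, chromosome 3, 134355874 to 134375479, minus strand) had 55.87, 55.65 and 46.94 TPM in OGT libraries, against 31.11, 29.43 and 28.49 TPM in control libraries. The groups were well apart, with OGT replicate 3 the lowest of its group. Its log2 change was 0.81 (SE 0.0882, adjusted p = 5.21e-04), 0.56 with the trend removed (adjusted p = 0.00194) and 0.42 after median centring (adjusted p = 0.00703). AMOTL2 over YAP1 averaged 2.64 ± 0.255 with OGT and 3.78 ± 0.162 in controls, and CCN2 over YAP1 averaged 5.76 ± 1.1 with OGT and 8.39 ± 0.286 in controls, and both ratios were lower in every OGT library than in any control (exact permutation p = 0.1, two-sided, for each). These genes differ in composition, with 56.7% GC and 4521 bases for the reference transcript of AMOTL2 and the values above for CCN2 and YAP1. After trend removal the log2(TPM + 1) changes of AMOTL2 (0.56) and CCN2 (0.58) were close to that of YAP1 (0.52). The ratios themselves were not computed with the trend removed. OGT replicate 3 was the lowest OGT library for 7 of the 10 members, and for 44.7% of all tested genes.

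**Figure D3:**
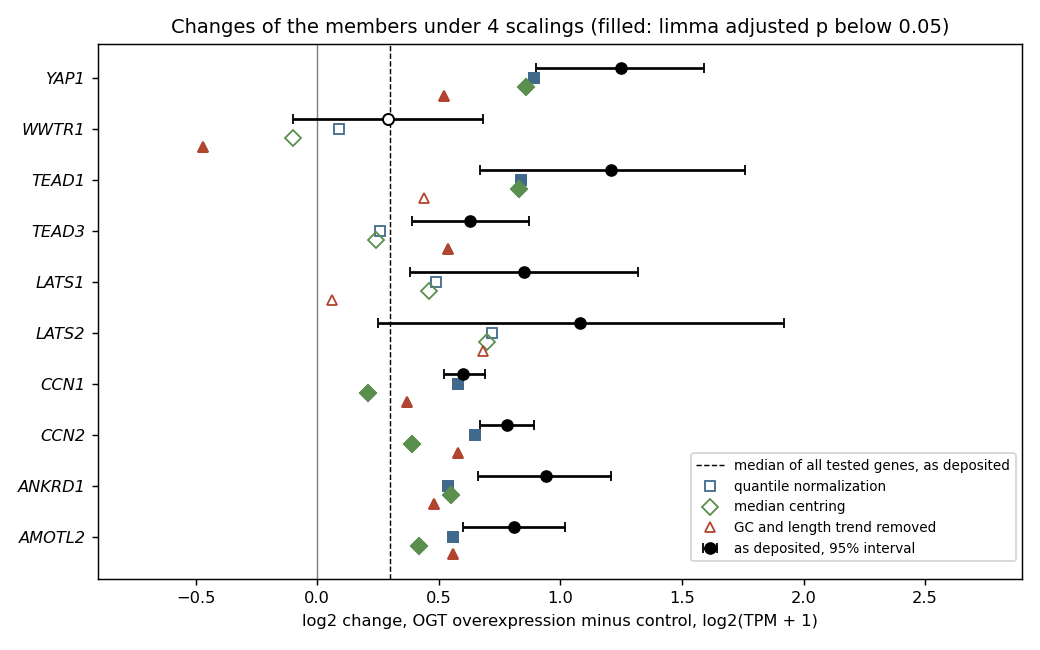
Log2 change of each member, OGT overexpression minus control, as deposited with its 95% interval (black) and under 3 other scalings; filled symbols are called by limma at an adjusted p below 0.05 and the dashed line is the median of all tested genes, 0.30. YAP1, CCN1, CCN2, ANKRD1 and AMOTL2 stay to the right of 0 and filled throughout, while WWTR1 lies on both sides of 0.

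Promoter sequences are shown because TEAD factors recognise the letters GGAATG. RefSeq promoter entries on GRCh38.p14 matched 8 of the 10 members, all but CCN1 and TEAD1, and the 250 bases before each RefSeq start were searched on both strands. Against the GENCODE gene coordinates given above, 3 of the 8 windows lay wholly before the gene (YAP1, TEAD3 and LATS2). Another 3 reached into it, by 1 base for CCN2, 62 for AMOTL2 and 189 for ANKRD1. The remaining 2 lay wholly inside it (WWTR1 and LATS1). The RefSeq start used thus differed from the GENCODE start of the gene, and whether these genes have other RefSeq starts was not examined. GGAATG or its reverse complement was found before YAP1, CCN2 and ANKRD1, 3 of 8, and before 11.9% of all 27303 promoters. In the 17 other genes of the target signature described further on, 13 had an entry and 4 held it: PTPN14, TGFB2, NUAK2, which was not called, and FOXF2, which was listed at 0 in all 6 libraries. CCN2 held 3 matches, starting 169, 104 and 95 bases before the start, ANKRD1 held 2, at 220 and 128 bases, and YAP1 held 1, at 162 bases. The AP-1 motif TGANTCA was found before ANKRD1, 1 of 8, and before 6.60% of all promoters, and the CArG box of SRF before 0 of 8 and 1.14%. A match describes the letters of this window, not binding. Sequences run 5′ to 3′ on the gene's strand, chr6:131951373-131951622 minus for CCN2, chr10:90921088-90921337 minus for ANKRD1 and chr11:102110197-102110446 plus for YAP1, with GGAATG in capitals.
CCN2: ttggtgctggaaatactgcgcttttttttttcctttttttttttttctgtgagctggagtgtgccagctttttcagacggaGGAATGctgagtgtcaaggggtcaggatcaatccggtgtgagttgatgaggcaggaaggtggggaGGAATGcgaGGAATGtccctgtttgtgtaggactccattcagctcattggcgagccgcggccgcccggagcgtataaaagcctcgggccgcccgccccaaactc
ANKRD1: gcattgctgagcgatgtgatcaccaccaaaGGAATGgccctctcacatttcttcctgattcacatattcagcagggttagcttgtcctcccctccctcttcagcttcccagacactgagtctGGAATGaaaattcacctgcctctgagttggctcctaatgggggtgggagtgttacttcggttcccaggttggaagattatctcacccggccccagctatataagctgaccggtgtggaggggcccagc
YAP1: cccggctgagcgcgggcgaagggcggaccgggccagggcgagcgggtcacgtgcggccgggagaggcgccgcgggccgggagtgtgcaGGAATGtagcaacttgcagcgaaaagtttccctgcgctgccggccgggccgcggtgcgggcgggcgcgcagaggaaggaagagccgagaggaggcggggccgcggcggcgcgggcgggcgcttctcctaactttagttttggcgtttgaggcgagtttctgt

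A wider set of YAP and TAZ targets was read from a published signature of 22 genes, 5 of them members (CCN1, CCN2, ANKRD1, AMOTL2 and LATS2). Of the other 17 genes 16 were tested, 13 rose (DOCK5 among them passing the filter through the OGT libraries), 0 fell and 3 were not called, with a median log2 change of 1.01, against 39.1% of all tested genes called higher and a median of 0.30. With the trend removed 10 rose and 0 fell, with a median of 0.55, against 16.0% and 0.03. After median centring 9 rose and 0 fell, against 15.3%, and after quantile normalization 10 and 0, against 20.2%. At an unadjusted limma p below 0.05, 1 gene was lower under each of these 2 scalings, and 0 as deposited or with the trend removed. CCDC80, which encodes an extracellular matrix protein, had 68.72, 74.53 and 62.12 TPM in OGT libraries, against 24.18, 23.14 and 25.94 TPM in control libraries (log2 change 1.45, adjusted p = 7.27e-05). NT5E, the gene of the ectonucleotidase CD73, averaged 72.28 ± 2.73 TPM with OGT and 31.9 ± 2.35 TPM in controls (1.16, adjusted p = 8.52e-05). The membrane repair gene MYOF averaged 57.59 ± 4.31 and 26.75 ± 1.52 TPM (1.08, adjusted p = 1.51e-04). The receptor kinase gene AXL averaged 298.7 ± 28.1 and 160.8 ± 6.03 TPM (0.89, adjusted p = 1.99e-04). Trend-removed changes of these 4 genes were 0.75, 0.54, 0.45 and 0.57, each called. The 3 not called, named after their values were seen, were FJX1 (-0.06), NUAK2 (0.10) and RBMS3 (-0.71), the last with 11.99 TPM in control replicate 1 and at most 1.89 TPM in any other library.

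Upstream Hippo components gave other counts. Of 21 core kinases and adaptors 19 were tested, 9 rose and 0 fell as deposited (median log2 change 0.60), and MOB1B and MAP4K1 were not tested, with at most 1.35 TPM. The 9 are 47.4% of the tested genes of the list, near the 39.1% of all tested genes. For 4 of the 9 (MAP4K5, SAV1, TAOK3 and WWC2) fewer than 3 control libraries reached 1 TPM, so they passed the filter on low values through the OGT libraries. With the trend removed 2 rose and 1 fell (10.5% higher, against 16.0% of all genes), and the median was 0.01, while median centring gave 5 higher and 4 lower and quantile normalization 5 and 3 (26.3% higher under each, against 15.3% and 20.2% of all genes). NF2, the gene of merlin, averaged 39.59 ± 2.42 TPM with OGT and 23.95 ± 1.11 TPM in controls (0.70, adjusted p = 5.68e-04), and WWC3, a KIBRA relative, 10.74 ± 0.127 and 5.27 ± 0.402 TPM (0.91, adjusted p = 0.00103). These were the 2 that rose with the trend removed (0.41 and 0.55). The MST1 kinase gene STK4 rose by 0.95 and MAP4K4 by 0.60 as deposited (adjusted p = 0.00254 and 4.99e-04), with trend-removed changes of 0.21 and -0.02 and no call. WWC1, the KIBRA gene, named after its values were seen, was 35.01 ± 1.78 TPM with OGT and 34.08 ± 1.63 TPM in controls. As deposited it was not called. It was called lower by limma with the trend removed (-0.30, adjusted p = 0.018), after median centring (-0.35, adjusted p = 0.00873) and after quantile normalization (-0.23, adjusted p = 0.0483).

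Junction and cytoplasmic partners of the pathway numbered 13, of which 10 were tested, 8 rose and 0 fell as deposited (median 0.71), against 39.1% of all genes higher. PTPN14, 1 of the 8, was also counted in the target signature. Under both median centring and quantile normalization 3 were higher and 1 lower, against 15.3% and 20.2% of all genes higher. With the trend removed 0 rose, against 16.0% of all genes, with 2 at an unadjusted limma p below 0.05, and 1 fell (median 0.21). The gene that fell was AJUBA, named after its values were seen. Its change was -0.09 without a call as deposited and -0.42 with the trend removed (limma adjusted p = 0.00145). AJUBA was also called lower after median centring (-0.48, adjusted p = 6.30e-04) and quantile normalization (-0.19, adjusted p = 0.043). The catenin gene CTNNA1 averaged 217.5 ± 8.94 TPM with OGT and 142.2 ± 11 TPM in controls (0.61, adjusted p = 4.93e-04), and the tight junction gene TJP1 9.52 ± 0.289 and 3.65 ± 0.981 TPM (1.20, adjusted p = 0.00183). The polarity gene PARD3 (0.63, adjusted p = 0.0029) and the giant cadherin gene FAT1 (0.85, adjusted p = 0.00595) rose as well. Trend-removed changes of the 4 were 0.10, 0.50, 0.16 and 0.30, none called. PARD3 and FAT1 also lost their calls after median centring (limma adjusted p = 0.115 and 0.0524). After quantile normalization PARD3 lost its call (adjusted p = 0.0503) and FAT1 kept it (adjusted p = 0.0442).

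The STRIPAK phosphatase complex, which opposes the Hippo kinases, had all 16 listed genes tested: 11 rose and 1 fell (median 0.76), or 3 and 1 with the trend removed (median 0.20), 4 and 3 after median centring and 6 and 2 after quantile normalization. The share higher was 68.8% as deposited, against 39.1% of all genes, 18.8% with the trend removed, close to the 16.0% of all genes, 25% after median centring, against 15.3%, and 37.5% after quantile normalization, against 20.2%. For 4 of the 11 (CTTNBP2NL, SLMAP, STRN and STRN3) fewer than 3 control libraries reached 1 TPM, so they too passed the filter through the OGT libraries. PDCD10, which encodes an adaptor of the complex, averaged 13.91 ± 1.2 TPM with OGT and 4.88 ± 1.33 TPM in controls (1.37, adjusted p = 0.00144). The kinase gene STK24 averaged 67.13 ± 2.04 and 38.87 ± 2.36 TPM (0.77, adjusted p = 2.28e-04), and the scaffold subunit gene PPP2R1A 266.9 ± 10.9 and 174.8 ± 17.9 TPM (0.61, adjusted p = 8.69e-04; 0.22 and adjusted p = 0.0591 after median centring). These 3 were also the ones that rose with the trend removed (0.89, 0.34 and 0.27), whereas SLMAP rose by 1.42 as deposited and had a trend-removed change of 0.63 with no call (adjusted p = 0.0814). STK25, named as the only member of that list that fell, averaged 149.1 ± 3.1 TPM with OGT and 172 ± 10.2 TPM in controls (-0.20, adjusted p = 0.0188; -0.43 with the trend removed). It missed the threshold without control replicate 3 (adjusted p = 0.0505). Of 6 genes for degradation of YAP and TAZ 5 rose and 0 fell (median 0.65), against 39.1% of all genes higher. Without OGT replicate 2 or without control replicate 3, 3 rose (50% under each, against 31% and 35.3% of all genes). Median centring gave 2 higher and 1 lower (33.3% higher, against 15.3% of all genes higher and 24.2% lower). Quantile normalization gave 3 higher and 0 lower (50% higher, against 20.2% of all genes), also 0 lower at an unadjusted limma p below 0.05. With the trend removed 1 rose, CUL1 (1.07 as deposited, 0.50 with the trend removed), 16.7% of the list against 16.0% of all genes. The ligase genes FBXW11 (0.93), SKP1 (0.66) and BTRC (0.63) lost their calls with the trend removed (0.26, -0.09 and -0.05), SKP1 and BTRC also after median centring (adjusted p = 0.178 and 0.341) and BTRC without OGT replicate 2 or control replicate 3 (adjusted p = 0.0807 and 0.0636). The counts of 0 that fell as deposited in the lists above were also 0 at an unadjusted limma p below 0.05.

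**Figure D4:**
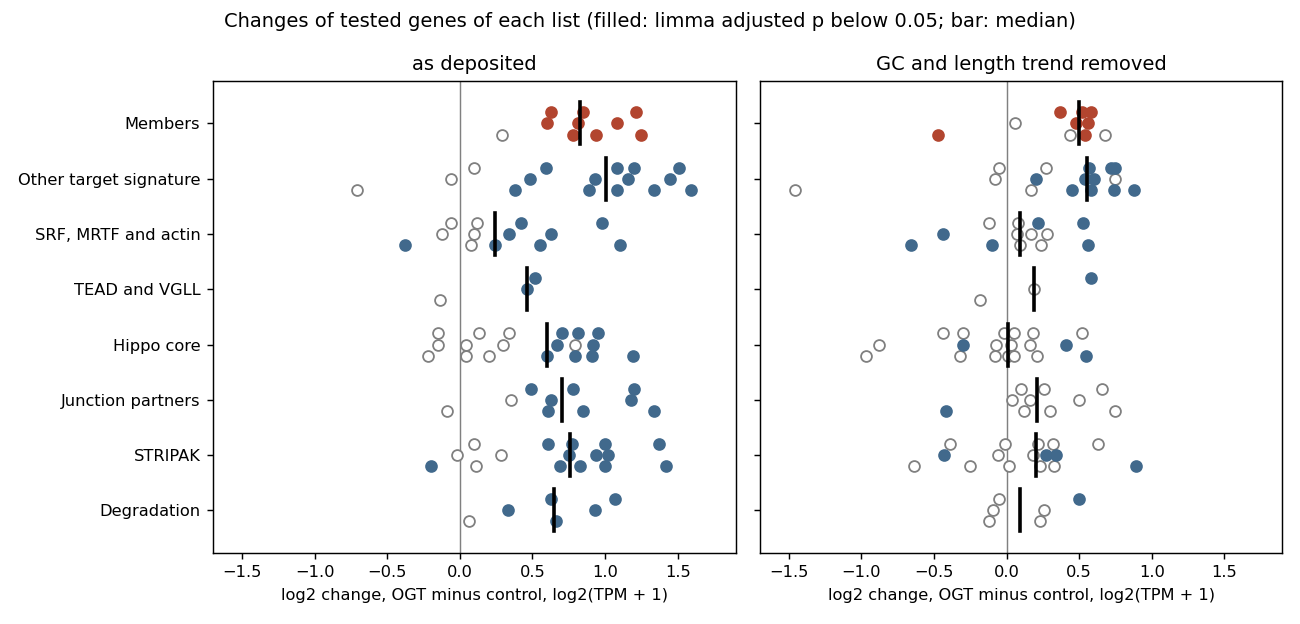
Log2 changes of the tested genes in each list, as deposited (left) and with the GC and length trend removed (right); each circle is a gene, filled where limma called it at an adjusted p below 0.05, and the bar is the list's median. The median of the members is 0.83 on the left and 0.50 on the right, that of the other target signature genes 1.01 and 0.55, and that of the Hippo core 0.60 and 0.01. PTPN14 is drawn in both the target signature row and the junction row.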

How the data were processed

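RNA sequencing libraries were made with a TruSeq RNA kit from total RNA of 786-O cells, 3 overexpressing OGT and 3 controls, per the labels. The authors deposited TPM per gene, 1 column per sample. Aligner, counter and annotation were not given in the sources used here. GRCm38 and mm10, both mouse builds, appear in the submitters' processing notes, whereas the gene identifiers are human. The filter kept genes reaching 1 TPM in at least 3 libraries. limma 3.58.1 (R 4.3.3) was run on log2(TPM + 1) values (eBayes with trend and robust, two-sided, Benjamini-Hochberg), and the test was tried on simulated data. GC content and length came from each gene's longest GENCODE release 29 transcript, protein-coding where there is one, for 97.7% of tested genes; the trend was removed with natural splines of 4 degrees of freedom. That transcript may not be the expressed one. Coordinates are from GENCODE release 29 by Ensembl identifier, promoters from RefSeq. Other alternatives were a pseudocount of 0.1 TPM, no filter, a mean of at least 5 TPM, quantile normalization, median centring, a replicate block and each library left out. Members and lists were chosen with earlier results of these data known. Of each list, up to 4 genes with the smallest adjusted p below 0.05 were named, plus the members, OGT and, for YAP1 and CCN2, the 3 genes nearest in profile. A further 10 genes were given values after these were seen, and others are named only for the filter, a motif or a shared list.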

Additional observations from a re-analysis of the deposited data

How the results depend on the processing

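YAP1, CCN1, CCN2, ANKRD1 and AMOTL2, 5 of the 10 members, kept their direction and their call in all 13 alternatives. The number of members called was 9 as deposited, 6 to 9 over the alternatives and 8 to 9 with 1 library left out; at a mean of at least 5 TPM only 7 members were tested and 6 called. Over all genes 6168 were called as deposited, 3556 with the GC and length trend removed, 4888 to 5718 with 1 library left out, and 4737 to 6091 otherwise. Same-numbered libraries were not treated as pairs: their deviations from the group means correlated at -0.0194, 0.00264 and 0.0166 and 1 of 6 libraries correlated best with its own number. A replicate block called 5473 genes and 9 members, and ended the calls of BTRC and STK25 (limma adjusted p = 0.0579 and 0.0505).

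Signs changed for WWTR1 with median centring (-0.10) and trend removal (-0.47). With the trend removed they changed for MAP4K4 (-0.02), SKP1 (-0.09), BTRC (-0.05), WWC1 (-0.30) and NUAK2 (-0.08). Median centring turned ACTG1 (-0.15), WWC1 (-0.35) and NUAK2 (-0.29), and quantile normalization WWC1 (-0.23) and NUAK2 (-0.27). Leaving out 1 library gave ranges across 0 for FJX1 (-0.14 to 0.07), RBMS3 (-1.17 to 0.15), TAOK1 (-0.69 to 0.91) and MAP4K3 (-0.85 to 0.80), and a pseudocount of 0.1 TPM turned TAOK1 (0.12). The causes were not tested. Of 553 further values for 43 named genes that are no members, 496 kept direction and call, 38 lost the call, 3 gained it and 16 changed sign. Low genes limit the precision: TEAD1, LATS1 and LATS2 averaged under 1.2 TPM in controls.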

Other observations

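Genes of SRF, its MRTF coactivators and the actin cytoskeleton, which share targets with YAP and TAZ, were read beside the members. Of 14 genes 13 were tested, 7 rose and 1 fell (53.8% higher, against 39.1% of all tested genes), with a median log2 change of 0.24, against 0.30 over all tested genes. MRTFB, among the 7, passed the filter on low values through the OGT libraries. With the trend removed 3 rose and 3 fell (median 0.09), 23.1% higher, against 16.0% of all genes higher and 12.8% lower. After median centring 4 rose and 6 fell, 30.8% higher, against 15.3% of all genes higher and 24.2% lower. Quantile normalization gave 6 higher and 2 lower, 46.2% higher, against 20.2% of all genes higher and 17.8% lower. The focal adhesion gene VCL averaged 52.41 ± 4.45 TPM with OGT and 23.85 ± 0.725 TPM in controls (log2 change 1.10, limma adjusted p = 1.42e-04, 0.53 with the trend removed). The actin gene ACTB averaged 8408 ± 485 TPM with OGT and 5720 ± 212 TPM in controls (0.55, 0.56 with the trend removed), and ACTG1 rose by 0.24 as deposited but was called lower after median centring (-0.15). FHL2, which encodes a LIM domain cofactor, rose by 0.63 (limma adjusted p = 1.30e-04) and was 0.07 without a call with the trend removed. MYL9, named as the only one that fell, averaged 85.05 ± 8.86 TPM with OGT and 110.9 ± 14.2 TPM in controls (-0.38, limma adjusted p = 0.0274). It lost its call without OGT replicate 1 or 3 or control replicate 1 (adjusted p from 0.0582 to 0.0733) and with no filter (adjusted p = 0.0695).

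Profiles were compared as the root mean square difference of centred log2(TPM + 1) values over the 6 libraries, over tested genes that averaged 5 TPM or more. Nearest to YAP1 were H6PD (0.0372), BUB1B (0.0601) and CDCP1 (0.0662), and nearest to CCN2 were RRAGC (0.0275), TNPO3 (0.0302) and SNW1 (0.0312).

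A few Hippo genes stood high in 1 control library, and were named after their values were seen. TAOK1 had 2.35, 2.4 and 1.76 TPM in OGT libraries, against 0.68, 0.68 and 14.34 TPM in control libraries. MAP4K3 had 3.75, 3.2 and 3.06 TPM in OGT libraries, against 1.92, 1.12 and 19.73 TPM in control libraries. Control replicate 3 was the high library for both, and neither was called with it (log2 changes -0.15 and -0.22). Without it both were called higher with OGT (0.91 and 0.80, limma adjusted p = 0.0185 and 0.0343), as were 35.3% of all tested genes. This setting was picked out after the high values were seen. Of the libraries left, only those of OGT reached 1 TPM for TAOK1, so it met the filter on low values through them.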
